A study of Homo sapiens with 6 samples.

Results

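The BCL2 family decides whether a cell releases cytochrome c from its mitochondria and dies. It was described here through 10 genes chosen by name from the 58735 gene identifiers in each count file. They are the pro-survival members BCL2, BCL2L1 and MCL1, the effectors BAX and BAK1, and the BH3-only members BID, BMF, BBC3, PMAIP1 and BCL2L11. Each symbol matched 1 Ensembl identifier in GENCODE release 29, and all 10 had enough counts to test. RNA was sequenced from 3 libraries of cells that received B35, named by the series as an LSD1 inhibitor, at 2 µM for 72 h, and from 3 libraries of cells left untreated for 72 h. Both groups carry the label A549, a human non-small cell lung cancer line, with a wild-type genotype, and were grown in DMEM with serum. No solvent is named for the untreated arm. Nothing in the labels ties the replicates to independent cultures, and the tests therefore speak only to library-to-library spread, which may be technical. The comparison addresses how B35 alters gene expression.

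Pro-survival proteins such as BCL2, BCL-XL (from BCL2L1) and MCL1 hold the effectors BAX and BAK in check at the mitochondrial outer membrane. BH3-only proteins sense stress and bind the pro-survival proteins through a short helix, and some of them also activate the effectors directly. Active BAX and BAK open the membrane, and the released cytochrome c joins APAF1 to activate caspase-9. Much of the family's control lies in protein stability, cleavage and location, which transcript counts do not measure.

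The libraries held 17141478 to 18530670 counts, and B35 replicate 1 stood apart from the other B35 libraries on the second principal component, which held 20.9% of the variance. KDM1A, the gene of LSD1, was at 184 ± 8.97 CPM in B35 cells and 198 ± 2.56 CPM in control cells (SD, n = 3 each; edgeR adjusted p = 0.432). CPM are counts scaled to a common library total. Some markers went against the label. CDKN2A and CDKN2B, known to be deleted in A549, were measured in all 6 libraries, CDKN2A at 2041 to 3370 counts with B35 and 2111 to 2574 counts in controls. CDKN2B had 338 to 461 counts with B35 and 198 to 236 counts in controls. ALDH1A1 and AKR1B10, known to be abundant in A549, had 15 counts at most with B35 and 26 at most in controls, although NQO1 of that set had 4075 to 4805 counts with B35 and 4952 to 5372 in controls. AKR1C1 of the same set rose 2.38-fold, with 542 to 605 counts with B35 and 198 to 277 in controls (edgeR adjusted p = 0.000407). Its level was 3.44 to 3.76 FPKM with B35 and 1.24 to 1.75 FPKM in controls, while NQO1 was at 69.7 FPKM or more in every library. The keratins KRT7, KRT8 and KRT18 were abundant, at no less than 131 FPKM in any library, and KRT8 was 1.49-fold lower with B35 (edgeR adjusted p = 0.00611). KRT19 had 8 counts at most, and the epithelial cadherin gene CDH1 had 5 to 21 counts with B35 and 20 to 28 in controls. The epithelial gene EPCAM rose 2.14-fold, with 130 to 133 counts with B35 and 52 to 65 in controls (edgeR adjusted p = 0.00248). The alveolar genes SFTPA1 and NAPSA had no count in any library, while SFTPB had 2 at most, NKX2-1 7 at most and SFTPC 9 at most. Among markers of other cell types, the leukocyte genes PTPRC and CD3E had 1 count at most, the stromal genes COL3A1 and DCN 8 at most and the endothelial gene PECAM1 11 at most, while the collagen gene COL1A1 had 334 to 396 counts with B35 and 428 to 455 in controls. The cells are therefore called by their labels only, as B35 cells and control cells.

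Among the 10 members, 2 rose and 1 fell with B35, and 7 did not pass the test (quasi-likelihood test of edgeR over 14773 genes, with a threshold of 0.05 after Benjamini-Hochberg adjustment). Both rises were in BH3-only genes. BMF rose by 2.41-fold and BCL2L11, which encodes BIM, by 1.28-fold. The fall was in a pro-survival gene, BCL2, which was 1.35-fold lower. Over all genes tested, 15.4% passed, 8.82% higher and 6.59% lower with B35. The 1303 higher and 973 lower genes became 1813 and 2234 when each library's trends on GC content and length were removed, where 27.4% of genes passed and 4 members did. The median log2 fold change of the members was 0.07, beside 0.007 over all genes tested. These are bulk measurements, in which a change in some cells and a change in every cell cannot be told apart. Without B35 replicate 1, 5 members passed, 4 higher and 1 lower, where 22.2% of all genes tested passed. BMF alone passed without B35 replicate 2 or without any 1 of the 3 control libraries, fits in which the calls over all genes also dropped, to 1646 without B35 replicate 2 and to 1079, 1286 and 881 without control replicates 1, 2 and 3, against 2276.

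Promoter windows of the 3 members that passed, and that of BAX for its repeated motif, are shown so that the letters can be read beside the values. RefSeq windows of the GRCh38.p14 build, from 250 bases before to 50 bases after a start site, were found for 9 of the 10 members. Where a gene had several windows, the one nearest the GENCODE gene start was taken. Capitals mark a FOXO motif (GTAAACA, either strand) or an E-box (CACGTG), which MYC and other factors bind. The BCL2L11 window starts from a site 1536 bases from the GENCODE gene start. The windows lie at chr15:40108830-40109129 on the minus strand for BMF, chr2:111120664-111120963 on the plus strand for BCL2L11, chr18:63319720-63320019 on the minus strand for BCL2 and chr19:48954625-48954924 on the plus strand for BAX.
BMF: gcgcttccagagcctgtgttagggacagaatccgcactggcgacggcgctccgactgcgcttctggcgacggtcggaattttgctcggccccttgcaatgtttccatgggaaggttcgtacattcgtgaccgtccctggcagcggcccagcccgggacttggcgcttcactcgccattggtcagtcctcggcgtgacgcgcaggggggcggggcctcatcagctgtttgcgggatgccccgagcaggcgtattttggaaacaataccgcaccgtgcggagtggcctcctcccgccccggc
BCL2L11: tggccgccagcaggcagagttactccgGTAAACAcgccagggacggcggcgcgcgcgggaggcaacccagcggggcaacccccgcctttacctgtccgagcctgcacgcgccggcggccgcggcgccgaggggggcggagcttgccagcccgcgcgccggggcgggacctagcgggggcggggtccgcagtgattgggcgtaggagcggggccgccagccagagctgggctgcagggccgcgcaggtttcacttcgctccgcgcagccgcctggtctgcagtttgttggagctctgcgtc
BCL2: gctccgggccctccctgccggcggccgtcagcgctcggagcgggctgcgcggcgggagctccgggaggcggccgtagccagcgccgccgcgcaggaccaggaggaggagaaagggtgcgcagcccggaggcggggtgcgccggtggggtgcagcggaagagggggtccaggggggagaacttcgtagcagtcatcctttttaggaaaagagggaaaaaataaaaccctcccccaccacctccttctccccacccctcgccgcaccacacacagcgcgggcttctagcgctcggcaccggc
BAX: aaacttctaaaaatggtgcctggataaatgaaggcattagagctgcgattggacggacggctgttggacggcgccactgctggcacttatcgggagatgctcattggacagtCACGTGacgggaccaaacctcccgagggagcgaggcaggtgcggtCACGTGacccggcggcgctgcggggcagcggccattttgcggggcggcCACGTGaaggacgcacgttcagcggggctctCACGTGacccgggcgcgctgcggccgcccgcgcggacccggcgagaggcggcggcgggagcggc

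The BCL2L11 window held 1 FOXO motif, starting at position −223 from the start site. That motif occurs in 3.42% of 35116 RefSeq windows of this length, and no window of the other 8 members held it. The BAX window held 4 E-boxes, at −138, −93, −45 and −14. At least 1 E-box was in 7.26% of all windows, and the share of windows with several was not computed. BBC3 had 1 E-box, at −232. The nearest window of BID had none, and another of its 5 windows had 2. The windows of BMF and BCL2 held neither motif. A match is a description of the letters and no measure of binding.

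**Figure D1:**
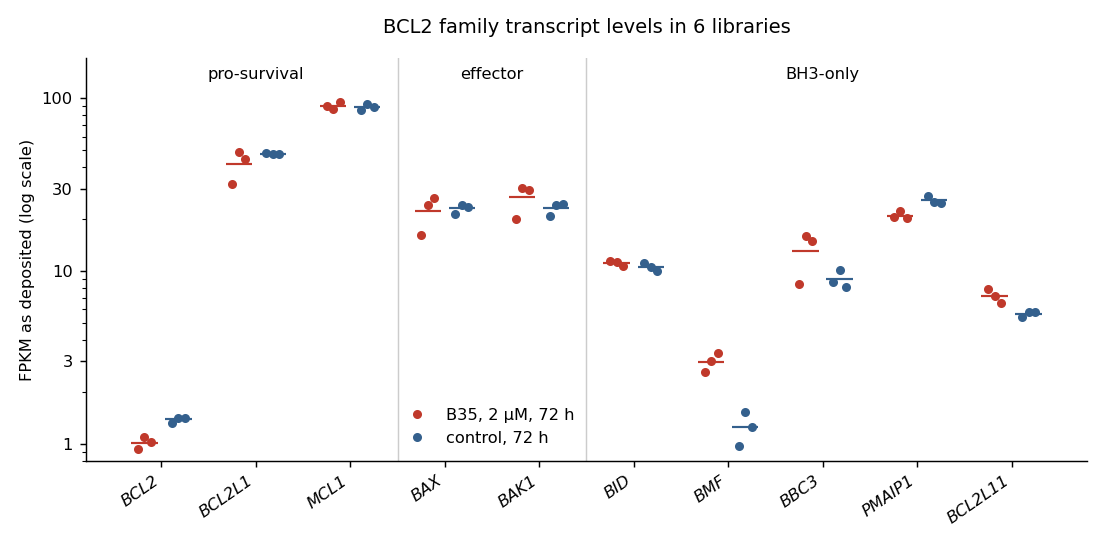
Deposited FPKM (log axis) of each BCL2 family member in the 3 B35 libraries (red, left) and the 3 control libraries (blue, right), with horizontal lines at group means. MCL1 sits highest at 85.4 to 95.7 FPKM, and the BMF points of the groups do not overlap (2.60 to 3.34 with B35, 0.967 to 1.53 in controls).

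Levels of different genes were compared per length, as the deposited FPKM (counts per kilobase of exon, scaled to the library). In both groups MCL1 led, followed by BCL2L1, and BCL2L11 took place 8 of the 10. The lowest places were held by BCL2 and BMF, in an order that differed between the groups. In B35 cells BMF was above BCL2 in every library, at 2.60, 3.01 and 3.34 FPKM against 0.937, 1.09 and 1.03 FPKM for BCL2. In control cells the ranges of these 2 genes overlapped. The ratio of BMF to BCL2 in FPKM was 2.77, 2.76 and 3.26 in B35 cells and 0.733, 1.07 and 0.892 in control cells. This pair was picked after its values were seen. Its ratios depend on merged exon lengths of 11765 bases for BCL2 and 5447 bases for BMF, which need not be those of the transcripts made. In counts BCL2 was above BMF in control cells, at 280 to 304 against 95 to 151. BMF was above BCL2 in counts in B35 cells, at 254 to 353 against 198 to 234. In the middle of the order the ranges of BAK1 and BAX overlapped in both groups, and so did those of BBC3 and BID. PMAIP1 took place 5 in B35 cells, where its range overlapped that of BAX above it. In control cells PMAIP1 took place 3, where its lowest value, 24.7 FPKM, was barely above the highest of BAK1, 24.6 FPKM.

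Of the pro-survival members, MCL1, a short-lived protein that restrains BAK, was the most abundant transcript of the family (ENSG00000143384, chromosome 1, 150574551 to 150579738, minus strand, hg38). It was measured at 89.9, 86.3 and 95.7 FPKM in B35 cells, against 85.4, 93.1 and 89.4 FPKM in control cells. The groups overlapped, at a log2 fold change of 0.04 ± 0.0873 (SE, edgeR adjusted p = 0.829). Its 95% interval ran from −0.16 to 0.23, or 0.897-fold to 1.17-fold.

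BCL2L1 makes BCL-XL and, by splicing, a shorter form that promotes death, which gene counts do not separate (ENSG00000171552, chromosome 20, 31664452 to 31723989, minus strand). It was at 32.0, 48.9 and 44.7 FPKM in B35 cells, against 48.2, 47.4 and 47.6 FPKM in control cells. Replicate 1 was the low library among B35 cells, and the other B35 libraries lay on either side of the controls. The log2 fold change was −0.17 (95% interval −0.47 to 0.13, edgeR adjusted p = 0.424), and −0.02 without B35 replicate 1. The antisense gene ABALON covers 42.97% of the annotated exon length of BCL2L1 and had 60 to 100 counts in B35 libraries and 87 to 121 in control libraries. The sources do not state whether reads were assigned by strand.

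BCL2, the founding member (ENSG00000171791, chromosome 18, 63123346 to 63320128, minus strand), was the scarcest pro-survival transcript of the 3. It was at 198, 233 and 234 counts in B35 cells and 280, 304 and 281 counts in control cells. Every B35 library was below every control library after scaling, at 11.2 to 12.9 CPM with B35 and 15.6 to 16.8 CPM in controls. On the log2 scale BCL2 fell by 0.43 ± 0.123 (SE; adjusted p in edgeR 0.0379). The call was lost without B35 replicate 2 (edgeR adjusted p = 0.0574), B35 replicate 3 (0.074), control replicate 1 (0.0821), control replicate 2 (0.115) or control replicate 3 (0.143), with log2 values between −0.48 and −0.41. It was also lost in limma tests of log2 FPKM with a pseudocount of 0.1 (0.0896) or 1 (0.0662).

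BCL2 was a small part of its class. The summed FPKM of the 3 pro-survival genes was 123, 136 and 141 in B35 cells and 135, 142 and 138 in control cells. MCL1 made up 68.1 ± 4.94% of that sum in B35 cells and 64.5 ± 1.16% in control cells (SD, n = 3 each). BCL2 made up 0.763 ± 0.0376% in B35 cells and 1.0 ± 0.0234% in control cells.

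The effectors did not pass the test. BAX, which moves from the cytosol to mitochondria when activated (ENSG00000087088, chromosome 19, 48954815 to 48961798, plus strand), was at 16.1, 24.0 and 26.6 FPKM in B35 cells, against 21.3, 24.2 and 23.6 FPKM in control cells. The B35 libraries fell on both sides of the controls. The log2 fold change was −0.04 (95% interval −0.39 to 0.32, edgeR adjusted p = 0.908), and 0.15 without B35 replicate 1 (edgeR adjusted p = 0.282). BAK1 encodes BAK, which resides on the mitochondrial membrane (ENSG00000030110, chromosome 6, 33572547 to 33580293, minus strand). It was at 20.1, 30.4 and 29.5 FPKM in B35 cells, against 20.9, 24.0 and 24.6 FPKM in control cells. B35 replicates 2 and 3 were above every control and B35 replicate 1 was below every control. The log2 fold change was 0.22 (95% interval −0.11 to 0.55, edgeR adjusted p = 0.355), and BAK1 passed at 0.38 when B35 replicate 1 was left out (edgeR adjusted p = 0.0129). Across the libraries of each group, the FPKM ratio of BAK1 to BAX varied less, relative to its mean, than either gene did. It was 1.25, 1.26 and 1.11 in B35 cells and 0.981, 0.991 and 1.04 in control cells.

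**Figure D2:**
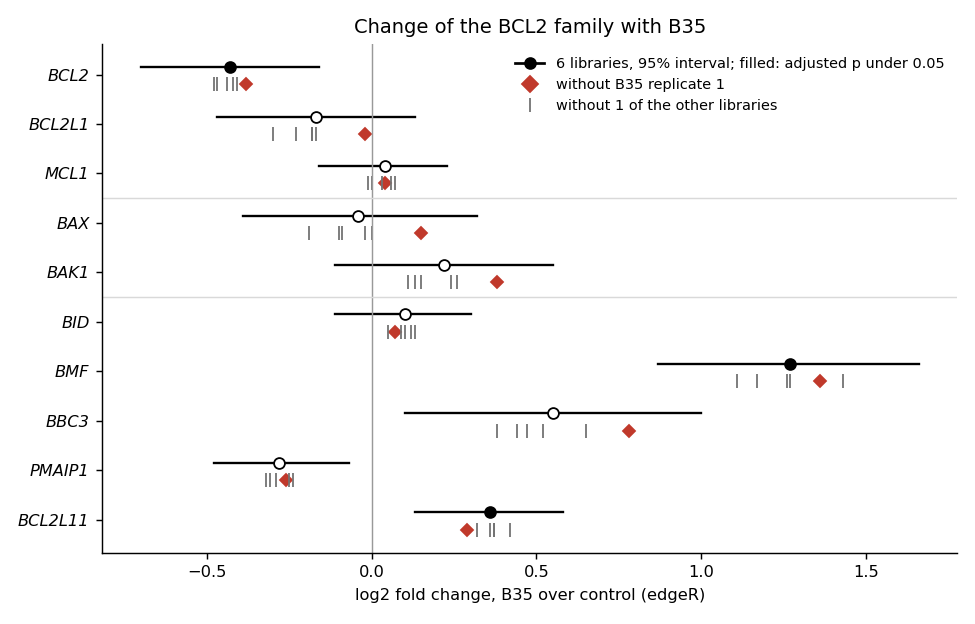
Log2 fold change of each member, B35 over control, from the edgeR fit to 6 libraries (circles, with 95% intervals, filled where the adjusted p was under 0.05) and from fits without B35 replicate 1 (red diamonds) or without 1 of the other libraries (grey ticks). BMF stays between 1.11 and 1.43 in the fits that leave out 1 library, and BBC3 moves to 0.78 without B35 replicate 1.

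BMF had the clearest change in the family. It encodes a BH3-only protein that is held at the actin cytoskeleton and released when cells detach (ENSG00000104081, chromosome 15, 40087890 to 40108892, minus strand). It had 254, 298 and 353 counts in B35 cells and 95, 151 and 116 counts in control cells. On the CPM scale it was at 16.5 ± 2.13 in B35 cells and 6.85 ± 1.53 in control cells (SD, n = 3 each), and every B35 library was above every control library. BMF was 2.41-fold higher with B35 (95% interval 1.83-fold to 3.17-fold), a log2 fold change of 1.27 ± 0.18 (SE; adjusted p in edgeR 0.00167). Only 2.0% of all genes tested had a higher fold change. BMF passed in all 17 alternative fits, with log2 values of 0.83 to 1.43, the lowest being on the log2(FPKM + 1) scale. BMF-AS1, an antisense gene that covers 8.46% of its exon length, had no count in any library.

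BCL2L11 encodes BIM, which binds every pro-survival protein of the family and can activate BAX directly (ENSG00000153094, chromosome 2, 111119378 to 111168447, plus strand). It was at 7.85, 7.19 and 6.54 FPKM in B35 cells, against 5.40, 5.79 and 5.80 FPKM in control cells. All B35 libraries were above all control libraries. BCL2L11 was 1.28-fold higher, a log2 fold change of 0.36 ± 0.102 (SE; adjusted p in edgeR 0.0375). The call was lost without B35 replicate 2 (edgeR adjusted p = 0.0931), control replicate 1 (0.138), control replicate 2 (0.0968) or control replicate 3 (0.134), with log2 values of 0.32 to 0.37, and in the limma tests of log2 FPKM with a pseudocount of 0.1 (0.0696) or 1 (0.0735). The long noncoding gene MIR4435-2HG lies on the opposite strand and covers 10.92% of the exon length of BCL2L11. It was at 55.6 ± 7.82 CPM in B35 cells and 41.5 ± 2.87 CPM in control cells (SD, n = 3 each) and also passed (log2 0.42 ± 0.119 SE, edgeR adjusted p = 0.0378). Its part in the change of BCL2L11 was not tested. BIM is made in several splice forms of different potency, and 17 coding transcripts are annotated, which the counts do not separate.

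BBC3 encodes PUMA, which also binds every pro-survival protein (ENSG00000105327, chromosome 19, 47220822 to 47232766, minus strand). It was at 8.40, 15.9 and 14.9 FPKM in B35 cells, against 8.70, 10.2 and 8.14 FPKM in control cells. B35 replicates 2 and 3 stood above every control, while B35 replicate 1 lay within the control range. The log2 fold change was 0.55 (95% interval 0.10 to 1.0), and it did not pass over all genes (edgeR adjusted p = 0.0944). Without B35 replicate 1 BBC3 was at 0.78 and passed (edgeR adjusted p = 0.000635). It also passed with DESeq2 (adjusted p = 0.0465), with no filter beyond 1 count (edgeR adjusted p = 0.000786) and with each library's GC and length trends removed (log2 0.42, edgeR adjusted p = 0.0139). Counting a fit with a replicate term, BBC3 passed in 5 of the 17 alternative fits, against 10 for BCL2 and 11 for BCL2L11. It did not pass in the limma tests of log2 FPKM with a pseudocount of 0.1 (adjusted p = 0.199) or 1 (0.203). Without B35 replicate 2 its edgeR adjusted p was 0.273.

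PMAIP1 encodes NOXA, a small BH3-only protein that chiefly engages MCL1 (ENSG00000141682, chromosome 18, 59899948 to 59904306, plus strand). It was at 20.5, 22.2 and 20.2 FPKM in B35 cells, against 27.2, 25.2 and 24.7 FPKM in control cells. The groups did not overlap, with B35 cells the lower. Its log2 fold change of −0.28 ± 0.0941 (SE) did not pass (edgeR adjusted p = 0.0699) and passed in none of the 17 alternative fits (adjusted p 0.0531 to 0.218). With BMF, BCL2L11 and BCL2, PMAIP1 made 4 of 10 members whose CPM ranges did not overlap between the groups, where 36.3% of all genes tested had such ranges.

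BID is cleaved by caspase-8 to carry death receptor signals to mitochondria (ENSG00000015475, chromosome 22, 17734138 to 17774770, minus strand). It was at 11.5, 11.3 and 10.7 FPKM in B35 cells, against 11.1, 10.6 and 10.0 FPKM in control cells, and the groups overlapped. Its log2 fold change was 0.10 (95% interval −0.11 to 0.30, edgeR adjusted p = 0.536).

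**Figure D3:**
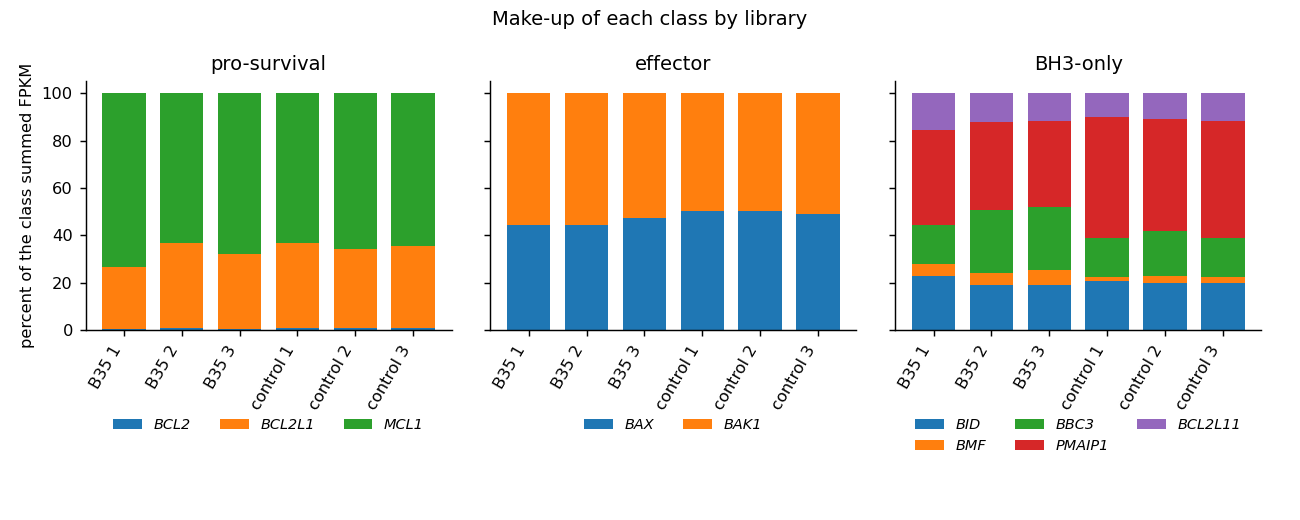
Percent of the summed FPKM of each class that each member contributed, in each B35 library (left bars) and control library (right bars). Among BH3-only genes PMAIP1 contributed 36.2 to 40.2% with B35 and 47.2 to 50.9% in controls, and BMF 5.05 to 6.0% with B35 and 1.81 to 2.86% in controls.

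The summed FPKM of the BH3-only class was 50.9, 59.6 and 55.7 in B35 cells and 53.3, 53.3 and 49.9 in control cells, and these ranges overlapped. PMAIP1 held 37.9 ± 2.09% of the sum in B35 cells and 49.2 ± 1.9% in control cells (SD, n = 3 each). BMF held 5.39 ± 0.532% in B35 cells and 2.40 ± 0.535% in control cells. BBC3 held 16.5, 26.6 and 26.8% in the 3 B35 libraries and 16.3, 19.2 and 16.3% in the 3 control libraries, so that B35 replicate 1 again lay within the control range. BID was at 20.3% on average in both groups. Shares are of transcripts per length and say nothing of protein amounts.

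**Figure D4:**
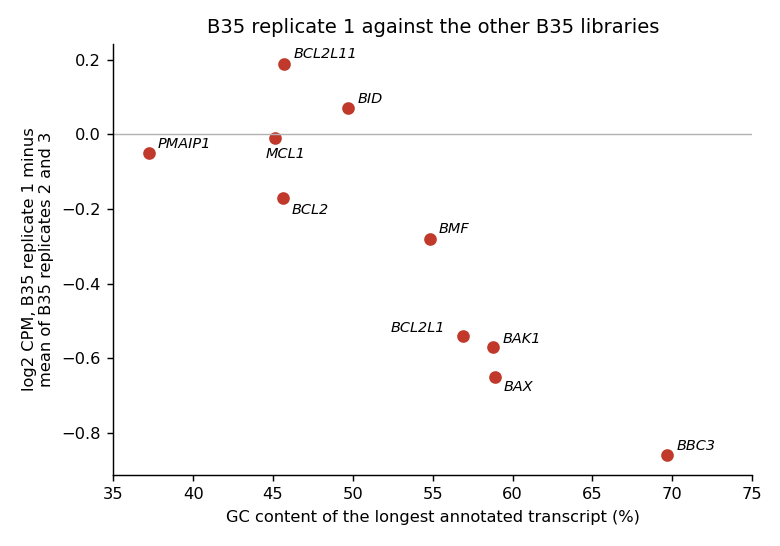
Difference in log2 CPM between B35 replicate 1 and the mean of B35 replicates 2 and 3, against the GC content of each member's longest annotated transcript. BBC3, at 69.7% GC, lies at −0.86, while PMAIP1, at 37.2% GC, lies at −0.05.

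B35 replicate 1 departed from the other B35 libraries in some members and not in others. It was lower by 0.86 in BBC3 on the log2 CPM scale, by 0.65 in BAX, by 0.57 in BAK1 and by 0.54 in BCL2L1. The transcripts of these 4 genes had the highest GC content of the family, at 56.9 to 69.7%. For BID, BCL2L11, BCL2, MCL1 and PMAIP1, at 37.2 to 49.7% GC, the difference lay between −0.17 and 0.19. BMF lay between these groups, at 54.8% GC and a difference of −0.28. The correlation of this difference with GC content was −0.873 (Pearson) and −0.806 (Spearman) over the 10 members, and −0.529 and −0.584 over 14766 tested genes. These are correlations across genes of the same 3 libraries, and genes are not independent replicates. With the GC and length trends removed, BBC3 passed as stated, BAK1 was at 0.15 and BCL2L1 at −0.25, neither of which passed, and BMF, BCL2L11 and BCL2 kept their calls.

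The rest of the mitochondrial death pathway was followed through 3 further lists, of which 43 of 46 genes could be tested. In these lists 6 genes rose and 8 fell, or 32.6% of those tested, beside the 15.4% of all genes that passed. The lists were chosen with earlier results of these data known, so their shares are a description and no test of the pathway. The median log2 fold change over the 3 lists was −0.12. The 14 calls became 7, 7 and 6 without control replicates 1, 2 and 3 in turn, where the 2276 calls over all genes became 1079, 1286 and 881. The 3 genes without enough counts were the pro-survival BCL2A1 and BCL2L10 and the homologue BCL2L14, none of which had more than 3 counts in a library.

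Of the 13 other homologues, 10 were tested, 2 rose and 3 fell. The other 5 did not pass, where 15.4% of all genes tested passed. BCL2L2, which encodes the pro-survival protein BCL-W, was 1.45-fold lower at 3.87, 4.93 and 5.10 FPKM in B35 cells and 6.62, 7.04 and 6.75 FPKM in control cells (edgeR adjusted p = 0.0171). It shares 19.41% of its exon length with the read-through gene BCL2L2-PABPN1 on the same strand, which had 9 counts at most. How reads in the shared exons were assigned was not examined, so that count does not measure the read-through transcript. HRK, a BH3-only gene known from neurons, was 1.56-fold lower, unlike BMF and BCL2L11 in direction (log2 −0.64 ± 0.169 SE, edgeR adjusted p = 0.0286). BCL2L15 was 1.53-fold lower (edgeR adjusted p = 0.0156). BNIP3, a mitochondrial BH3-like protein of hypoxia and mitophagy, was 1.41-fold higher at 152 ± 10.4 CPM in B35 cells and 108 ± 0.245 CPM in control cells (SD, n = 3 each, edgeR adjusted p = 0.00499). BCL2L13, a mitophagy receptor, was 1.27-fold higher (edgeR adjusted p = 0.0459). The call of BCL2L2 was lost without control replicates 1, 2 and 3 in turn (edgeR adjusted p = 0.0538, 0.0609 and 0.0698). That of HRK was lost without B35 replicate 3 (0.0819), control replicate 2 (0.107) or control replicate 3 (0.0952) and in the limma test of log2(FPKM + 0.1) (0.0511), and that of BCL2L15 without control replicate 1 (0.0767). Among fits without 1 library, BCL2L13 kept its call only without B35 replicate 1, and its adjusted p was 0.0985 and 0.0704 without B35 replicates 2 and 3 and 0.114, 0.183 and 0.112 without control replicates 1, 2 and 3. It was also lost with relative log expression scaling (0.051), with no filter beyond 1 count (0.067) and in the limma tests of log2 FPKM (0.084 and 0.0879).

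**Figure D5:**
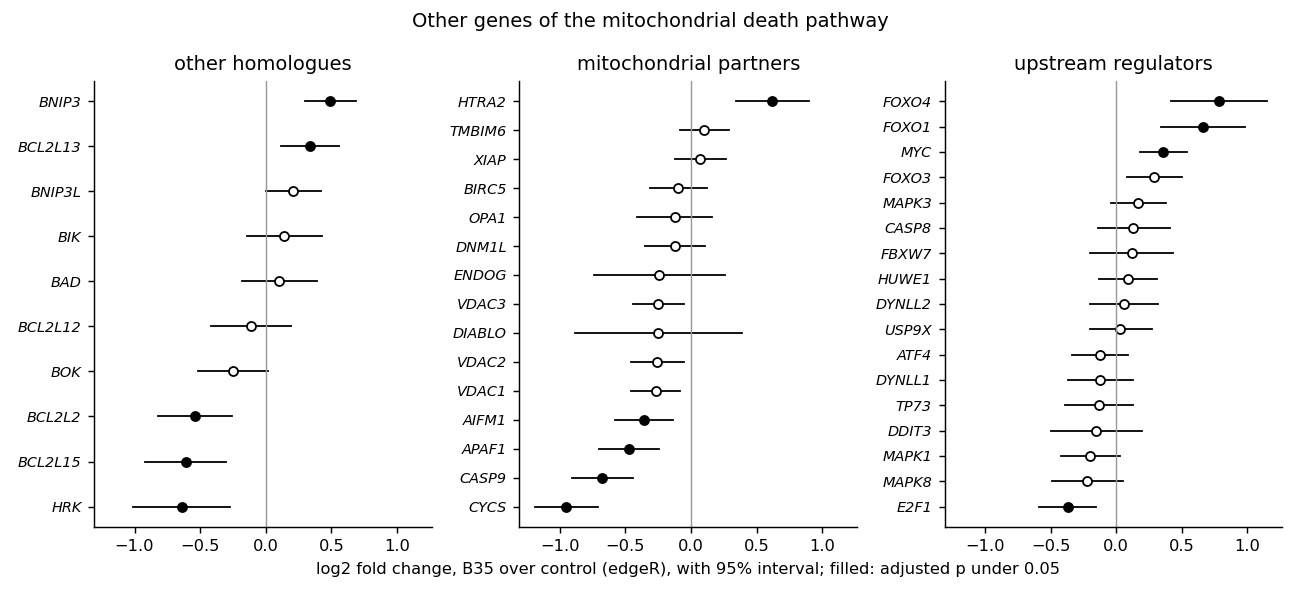
Log2 fold change, B35 over control, with 95% intervals, for genes of the 3 further lists, filled where the edgeR adjusted p was under 0.05. CYCS lies lowest at −0.95 and FOXO4 highest at 0.78.

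Of 15 mitochondrial partners, 1 rose and 4 fell, or 33.3%, beside 15.4% of all genes tested. CYCS, which encodes cytochrome c, was 1.93-fold lower, at 17.4, 22.7 and 20.8 FPKM in B35 cells and 42.1, 37.3 and 39.5 FPKM in control cells (edgeR adjusted p = 0.000589). CASP9, the initiator caspase that cytochrome c and APAF1 activate, was 1.60-fold lower, at 5.46, 6.44 and 5.20 FPKM in B35 cells and 9.26, 9.45 and 8.86 FPKM in control cells (edgeR adjusted p = 0.00287). APAF1 was 1.38-fold lower (edgeR adjusted p = 0.0134) and AIFM1, a mitochondrial flavoprotein, 1.28-fold lower (edgeR adjusted p = 0.0335). The serine protease gene HTRA2, whose product leaves mitochondria with cytochrome c, was 1.54-fold higher (edgeR adjusted p = 0.00893). HTRA2 shares 20.83% of its exon length with LOXL3 and 16.09% with AUP1, both on the opposite strand. CYCS, CASP9 and HTRA2 passed in all 6 fits without 1 library. APAF1 was lost without B35 replicate 2 (0.0551), control replicate 2 (0.0569) or control replicate 3 (0.0805), and AIFM1 without B35 replicate 3 (0.0585) or control replicates 1, 2 and 3 in turn (0.0844, 0.121 and 0.115).

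Of 18 upstream regulators, 3 rose and 1 fell, or 22.2%, beside 15.4% of all genes tested. FOXO factors are known to activate BCL2L11, BBC3 and BMF in several cell types. FOXO4 was 1.72-fold higher, at 6.10, 7.59 and 8.14 FPKM in B35 cells and 3.31, 4.72 and 4.81 FPKM in control cells (edgeR adjusted p = 0.0107). FOXO1 was 1.58-fold higher, at 5.38, 4.46 and 3.61 FPKM in B35 cells and 2.73, 2.93 and 2.95 FPKM in control cells (edgeR adjusted p = 0.0132). FOXO3, named after its values were seen, was at log2 0.29 (edgeR adjusted p = 0.0605). MYC, which sensitizes cells to death, was 1.28-fold higher (edgeR adjusted p = 0.0136), and E2F1, a cell cycle factor that can induce BH3-only genes, was 1.29-fold lower (edgeR adjusted p = 0.0321). FOXO4 passed in all 6 fits without 1 library. FOXO1 was lost without control replicate 1 (0.0634) or control replicate 3 (0.0559), and MYC without control replicates 1, 2 and 3 in turn (0.0518, 0.0686 and 0.0957). E2F1 was lost without B35 replicate 2 (0.057) or control replicates 1, 2 and 3 in turn (0.0907, 0.124 and 0.0862). FOXO3 passed in only 3 of the 17 alternative fits. These were the fit without B35 replicate 3 (0.0497), with upper-quartile scaling (0.0468) and with GC and length trends removed (0.0437). Its edgeR adjusted p reached 0.182, without control replicate 3. Whether these factors act on the members was not tested.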

How the data were processed

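RNA was extracted with TRIzol and made into NEBNext Ultra libraries, per the labels' protocols. HISAT2 2.0.5, featureCounts 1.5.0-p3 and hg38 are named in the submitters' processing notes. The authors deposited raw counts and FPKM for 58735 genes per library, and all identifiers are in GENCODE release 29, which gave symbols, coordinates, exon lengths and overlaps. Deposited FPKM equal counts per kilobase of merged exon divided by 0.982 to 1.05 times the library's count total.

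Counts were tested with the edgeR 4.0.16 quasi-likelihood test in R 4.3.3, on TMM-scaled libraries and genes kept by filterByExpr (minimum count 10, scaled to library size, in as many libraries as the smaller group has, and 15 in all), with Benjamini-Hochberg adjustment over 14773 genes and a threshold of 0.05. The SE is the log2 fold change divided by the square root of F. The test was run on simulated data first. Alternatives used DESeq2 1.42.0, limma 3.58.1, other scalings and filters, GC and length offsets, a replicate term, and each library left out. No 2 replicates matched within counting error (chi-square over its degrees of freedom was 4.46 to 32.3), so none was merged with another as a repeat of the same library. Depth limits low genes most, and intervals cover the spread between libraries only.

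The members, lists and alternatives were chosen with earlier results of these data known. Named genes were all members, every gene of the 3 further lists past the threshold, KDM1A and, after its values were seen, FOXO3. Cell type markers, some genes that share exons with a named gene and the listed genes without enough counts were named as well. Of the upstream regulators, 1 is counted with its list but not reported here. Protein sequences were not used here.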

Additional observations from a re-analysis of the deposited data

How the results depend on the processing

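BMF kept its call in all 17 alternatives. The number of members past the threshold was 3 in the reported fit, 1 in the limma tests of log2 FPKM with either pseudocount, and 1 to 5 with 1 library left out. The number among the 3 further lists was 14 in the reported fit, 21 with GC and length trends removed (8 higher and 13 lower) and 6 to 18 with 1 library left out. Over all genes, 2276 passed in the reported fit, 4047 with GC and length trends removed (1813 higher and 2234 lower), and 881 to 3342 with 1 library left out. In the limma tests of log2 FPKM, 1932 genes passed with a pseudocount of 0.1 and 1914 with a pseudocount of 1. Upper-quartile scaling gave 1477 higher and 813 lower, against 1303 and 973. The causes were not tested. With 1 library left out, the log2 fold change of MCL1 ranged from −0.01 (without B35 replicate 3) to 0.07 and that of BAX from −0.19 to 0.15 (without B35 replicate 1), against 0.04 and −0.04 in the reported fit. Neither had passed.

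Same-numbered libraries did not deviate together (correlations of 0.163, 0.016 and −0.063 for numbers 1, 2 and 3), so the numbers were not taken as pairs. With the replicate block, 2855 genes, 4 members (BBC3 added, edgeR adjusted p = 0.0221) and 14 genes of the further lists passed. The largest shares of a class, MCL1 at 68.1% with B35 and 64.5% in controls, ranged over 65.5 to 70.4% and 64.0 to 65.1% with 1 library left out. PMAIP1 ranged over 36.7 to 38.8% with B35 and 48.3 to 50.2% in controls, and BMF over 5.08 to 5.55% and 2.17 to 2.7%. Depth limits BMF most, with 95 counts in its lowest library.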
